A study of Mus musculus with 4 samples.

Results

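Transcripts of 2 kinds of blood cell, neutrophils and red cells, were followed in mouse nervous tissue. The genes were S100a8, S100a9, Ngp, Camp and Lcn2, which neutrophils make, and Alas2, Slc4a1 and Prdx2, which red cell precursors make. Every probe set whose platform annotation gives one of these 8 symbols was taken, 11 probe sets of 45037 that are no controls, for 8 of 18193 genes. A probe set is a group of short oligonucleotides on the array that are read together as 1 value. The genes were picked in part because S100a9 read far higher on cDNA than on aRNA arrays and because 1 Prdx2 probe set read lower on the arrays numbered 1 than on those numbered 0. Both contrasts had therefore been used to choose the genes, and their differences are given below as descriptions with no test. Tests are given for other blood, glial and vascular genes, which were listed by their known function, with earlier results of these data known.

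The series holds 4 Affymetrix mouse arrays, labelled as brain, hindbrain and spinal cord. A Nugen kit made the cDNA that was hybridised to 2 of them. T7-based amplification made the antisense RNA (aRNA) on the other 2. Each preparation has an array numbered 1 and an array numbered 0, and the labels do not explain the numbers. Strain, sex, age, treatment, the number of animals and whether they were perfused (cleared of blood) are not given in the labels. Every p-value thus measures only the spread between these arrays, which may be technical in part. On aRNA it includes a difference in sex-linked transcripts, given below.

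Neutrophils are short-lived white cells that carry ready-made defence proteins in granules, and a healthy brain holds very few of them outside its vessels. S100a8 and S100a9 pair to form calprotectin, the main calcium-binding protein of the neutrophil cytosol. Camp (cathelicidin), Ngp (neutrophilic granule protein) and Lcn2 (lipocalin 2, which binds bacterial iron carriers) belong to the secondary granules, and their transcripts are made mostly by precursors in bone marrow. Red cell precursors make heme through Alas2, the erythroid first enzyme of heme synthesis, build Slc4a1 (band 3, the anion exchanger) into their membrane and fill with hemoglobin and with Prdx2, a peroxidase. Blood left in the vessels of a tissue brings such transcripts into its RNA. In whole tissue, fewer cells of a type and less RNA per cell cannot be told apart.

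Values are intensity, the brightness of a probe set on a linear scale, already scaled by the authors to an equal trimmed mean on all arrays. Background was taken as the 95th percentile of 27 control probe sets for Bacillus transcripts, and was 249 and 212 on cDNA arrays 1 and 0, against 126 and 123 on aRNA arrays 1 and 0. It was thus higher on cDNA, and a value between these levels counts as signal on one preparation and not on the other. Differences are in log2(intensity + 16), which understates the change of dim probe sets. Where an aRNA array lay under background, the fold is a lower bound against that level. Of the tissue markers, Snap25, a synaptic protein, and Mbp, a myelin protein, were far above background on all arrays, Pcp2, a Purkinje cell gene, read 11855 and 7750 on cDNA arrays 1 and 0 against 27.4 and 219 on aRNA arrays 1 and 0, and Hoxc8, a gene of the spinal cord, was under it throughout. One library stood apart: on aRNA array 0, Xist, the RNA of the inactive X chromosome, was 8.55 on the log2 scale at probe set 1436936_s_at against 11.94 to 15.44 on the other arrays, and Y-linked Eif2s3y was 13.12 against at most 7.92. Values without that array are therefore given as well. Between the 2 aRNA arrays, a difference by number cannot be told apart from this difference in sex-linked transcripts. The labels also do not say whether both preparations started from the same RNA. A difference between cDNA and aRNA thus cannot be told apart from a difference in the RNA used.

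S100a8 and S100a9 were bright on both cDNA arrays and under background on both aRNA arrays. S100a9 (1448756_at) read 12857 and 3980.1 on cDNA arrays 1 and 0, against 30.3 and 6.71 on aRNA arrays 1 and 0. On the log2 scale it averaged 12.81 ± 1.19 on cDNA and 5.02 ± 0.73 on aRNA (SD, n = 2 each), a difference of 7.79 as measured and at least 51.1-fold against the background level. S100a8 (1419394_s_at) read 14202 and 2736 on cDNA arrays 1 and 0, against 77.1 and 50.1 on aRNA arrays 1 and 0. It averaged 12.61 ± 1.68 on cDNA and 6.29 ± 0.35 on aRNA (SD, n = 2 each), a difference of 6.32 as measured and at least 44.6-fold. The pair therefore gave a clear signal in one preparation and none above background in the other. Without aRNA array 0 the differences were 7.28 for S100a9 and 6.07 for S100a8. Within cDNA both genes were brighter on array 1, S100a9 by 3.23-fold and S100a8 by 5.19-fold. The same contrast could not be read on aRNA, where neither gene rose above background.

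The 2 genes are neighbours on chromosome 3, with no other gene starting between them in the RefSeq table (GRCm38.p6). Their promoters are shown, with those of Ngp and Camp, because these 4 neutrophil transcripts were above background on both cDNA arrays and separated the preparations in the same direction. Each is a window of 300 bases that ends just past the RefSeq start, in the direction of transcription. Ngp and Camp both lie on chromosome 9, with 18 other genes, 8 of them protein-coding, starting between them. Capitals mark matches, on either strand, to TTNNGNAA, a core of sites for C/EBP factors, and to GAGGAA, a core of sites for PU.1, both regulators of granulocyte genes.
S100a8, chr3:90668821-90669120, plus strand: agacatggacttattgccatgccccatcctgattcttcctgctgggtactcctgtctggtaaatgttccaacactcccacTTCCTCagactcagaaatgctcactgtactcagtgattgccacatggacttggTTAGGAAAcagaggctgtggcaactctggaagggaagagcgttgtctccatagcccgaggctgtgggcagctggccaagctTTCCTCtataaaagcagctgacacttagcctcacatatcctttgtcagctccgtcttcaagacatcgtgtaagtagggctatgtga
S100a9, chr3:90695672-90695971, minus strand: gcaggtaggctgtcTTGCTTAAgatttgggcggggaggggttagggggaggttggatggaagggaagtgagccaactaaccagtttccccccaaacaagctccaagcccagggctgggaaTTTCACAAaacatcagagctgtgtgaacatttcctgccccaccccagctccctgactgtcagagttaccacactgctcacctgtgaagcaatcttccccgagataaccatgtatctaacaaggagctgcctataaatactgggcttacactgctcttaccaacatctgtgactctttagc
Ngp, chr9:110419558-110419857, plus strand: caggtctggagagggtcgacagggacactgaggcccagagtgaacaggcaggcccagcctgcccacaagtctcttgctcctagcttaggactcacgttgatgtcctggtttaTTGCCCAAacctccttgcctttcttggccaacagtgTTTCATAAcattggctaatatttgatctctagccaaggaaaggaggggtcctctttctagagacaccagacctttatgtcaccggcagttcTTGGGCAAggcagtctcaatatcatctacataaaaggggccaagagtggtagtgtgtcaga
Camp, chr9:109849407-109849706, minus strand: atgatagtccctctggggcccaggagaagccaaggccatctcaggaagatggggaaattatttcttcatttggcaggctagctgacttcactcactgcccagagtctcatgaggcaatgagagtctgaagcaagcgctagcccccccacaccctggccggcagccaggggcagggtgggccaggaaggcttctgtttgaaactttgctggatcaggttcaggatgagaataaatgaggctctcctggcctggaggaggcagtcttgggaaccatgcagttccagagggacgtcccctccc
The C/EBP letters occurred once in the S100a8 promoter, at 2 places in that of S100a9 and at 3 in that of Ngp, and were not found in this window of Camp. The PU.1 letters occurred at 2 places in the S100a8 promoter and not in the other 3 windows. Of 32851 mouse promoters of the same length in the table, 40.7% held the C/EBP letters and 28.3% the PU.1 letters, so a match is common and describes the sequence only. AGATAA, a core of sites for GATA factors, was also searched and is not marked. It occurred at 1 place in the S100a9 window and not in the other 3, and in 11.2% of the promoters.

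The secondary granule genes Ngp and Camp were dimmer and also lay higher on cDNA. Ngp (1418722_at) read 1978 and 1221 on cDNA arrays 1 and 0, against 116 and 267 on aRNA arrays 1 and 0, of which the first lay under background. It averaged 10.62 ± 0.49 on cDNA and 7.59 ± 0.78 on aRNA (SD, n = 2 each), a difference of 3.03 and at least 7.85-fold. Camp (1419691_at) read 879 and 331 on cDNA arrays 1 and 0, against 39.4 and 196 on aRNA arrays 1 and 0. Again aRNA array 1 lay under background and aRNA array 0 above it. On the arrays numbered 0 Camp read 1.56 times background on cDNA and 1.59 times on aRNA, where background was lower. Its fold is one of intensities and does not allow for the higher background on cDNA. Its means were 9.12 ± 0.97 on cDNA and 6.76 ± 1.37 on aRNA (SD, n = 2 each), a difference of 2.36 and at least 3.22-fold. In both genes the brighter array was number 1 within cDNA and number 0 within aRNA. Without aRNA array 0 the differences were 3.58 for Ngp and 3.33 for Camp.

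Lcn2 did not separate the preparations. Besides neutrophils, reactive astrocytes are known to make it in the injured or inflamed brain. Its probe set 1427747_a_at read 1784 and 635 on cDNA arrays 1 and 0, against 1424 and 285 on aRNA arrays 1 and 0, above background on all 4. The means were 10.08 ± 1.04 on cDNA and 9.36 ± 1.59 on aRNA (SD, n = 2 each), and the difference of 0.72 was smaller than the pooled SD of 1.35. Without aRNA array 0 it turned to -0.41, and without cDNA array 1 to -0.02. The larger contrast was between the numbers, array 1 being 2.81-fold above array 0 on cDNA and 4.99-fold on aRNA.

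**Figure D1:**
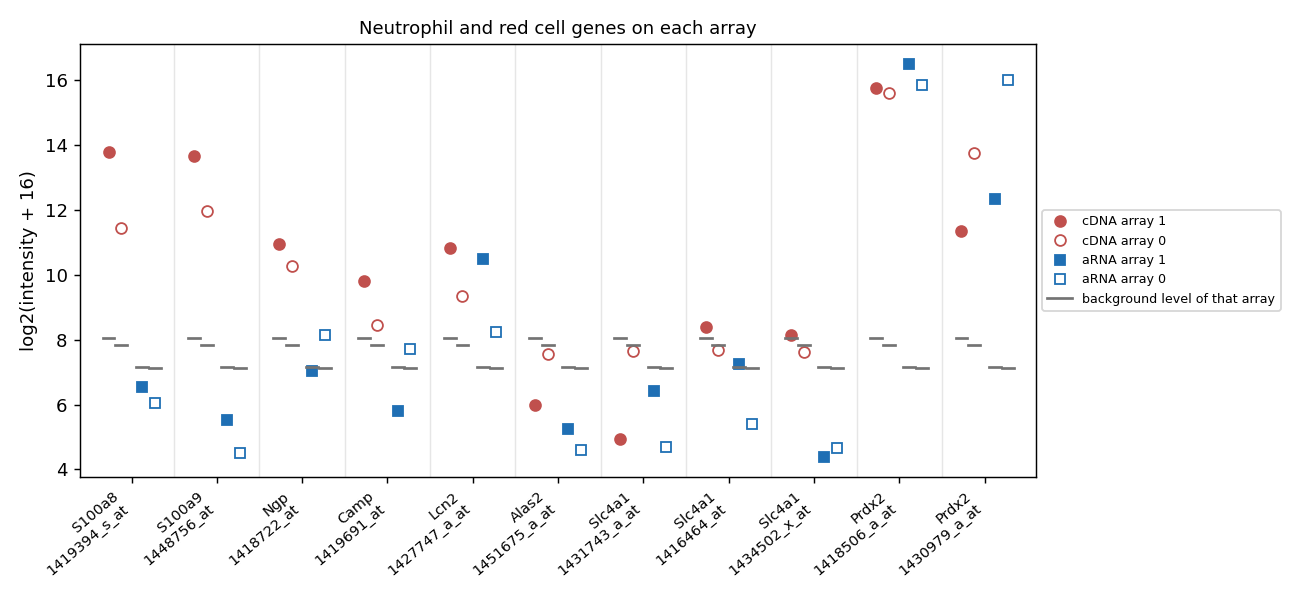
Values of the 11 probe sets, log2(intensity + 16) on the vertical axis, with 1 point per array and a grey bar at the background level of that array. S100a8 and S100a9 lie far above the bars on cDNA and under them on aRNA, Alas2 lies under them throughout, and the right-hand Prdx2 probe set is low on both arrays numbered 1.

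Of the red cell genes chosen, Alas2 and Slc4a1 gave little or no signal. Alas2 (1451675_a_at) read 46.8 and 174 on cDNA arrays 1 and 0, against 22.0 and 8.17 on aRNA arrays 1 and 0, under background on all 4, so no fold is given. Slc4a1 has 3 probe sets, and they disagreed. At 1416464_at, designed on the RefSeq transcript, it read 316 and 188 on cDNA arrays 1 and 0, against 135 and 26.0 on aRNA arrays 1 and 0. Both arrays numbered 1 lay just above background there and both numbered 0 under it. At 1434502_x_at, a set whose name marks probes that may bind unrelated transcripts, it read 267 and 181 on cDNA arrays 1 and 0, against 4.86 and 9.52 on aRNA arrays 1 and 0, and cDNA array 1 was the one array above background. At 1431743_a_at it read 15.0 and 184 on cDNA arrays 1 and 0, against 70.0 and 9.59 on aRNA arrays 1 and 0, under background on all 4. No Slc4a1 value exceeded its array's background by more than 1.27-fold.

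Prdx2 was among the bright transcripts, and its 2 probe sets behaved unlike each other. Neurons also make this peroxidase, so its signal is not that of red cells alone. At 1418506_a_at, designed on a RefSeq transcript, it read 54977 and 49298 on cDNA arrays 1 and 0, against 92254 and 59288 on aRNA arrays 1 and 0. The means were 15.67 ± 0.11 on cDNA and 16.17 ± 0.45 on aRNA (SD, n = 2 each), lower on cDNA by 0.51, and array 1 exceeded array 0 by 1.12-fold on cDNA and 1.56-fold on aRNA. At 1430979_a_at, designed on another sequence record, it read 2571 and 13766 on cDNA arrays 1 and 0, against 5141 and 65732 on aRNA arrays 1 and 0. Array 0 was thus 5.35-fold above array 1 on cDNA and 12.8-fold above it on aRNA, a mean difference of -3.04 for number 1 against number 0. Between the preparations its means were 12.54 ± 1.71 on cDNA and 14.17 ± 2.60 on aRNA (SD, n = 2 each). That difference of -1.62 was smaller than the pooled SD of 2.20 and came to 0.21 without aRNA array 0. The RefSeq table also lists pseudogenes of Prdx2, and the files do not say whether the probes tell them apart.

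Of the 11 probe sets, 7 had both cDNA arrays above both aRNA arrays, against 31% of all 45037 probe sets, and 1 (Prdx2 at 1418506_a_at) had both below, against 30.6%. Among the 7 were Alas2, under background on all 4 arrays, and Slc4a1 at 1416464_at and 1434502_x_at, at most 1.27 times background. The genes were picked in part on this contrast, so these shares are no test. Number 1 was above number 0 in both preparations at 5 probe sets (25.2% of all) and below it in both at 1 (25.5%). At the other 5 the preparations ran opposite ways. Only 6 of the 11 passed the filter on low values, a mean over the 4 arrays of at least 8.38 on the log2 scale. The other 5 were Camp, whose mean was 7.94, Alas2 and the 3 sets of Slc4a1. S100a8, S100a9 and Ngp passed through their cDNA values, as their values on both aRNA arrays lay under that level.

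Hemoglobin, the most abundant product of red cells, was not among the genes chosen and could be tested. Of its 15 probe sets 2 were called, both for beta chains and both higher on cDNA. Hbb-b2 (1427865_at), an adult beta chain, read 2556 and 1365 on cDNA arrays 1 and 0, against 86.4 and 172 on aRNA arrays 1 and 0. Only aRNA array 1 lay under background, and the set passed the filter through its cDNA values, as both aRNA values lay under that level. The difference of 3.77 (SE 0.55), at least 11.6-fold, passed the test with a limma adjusted p of 0.000871, where 43.2% of the 22519 probe sets tested were called, 20.2% as higher and 22.9% as lower. A probe set annotated to several beta globin genes (1417184_s_at) read 9191 and 4409 on cDNA arrays 1 and 0, against 1027 and 1608 on aRNA arrays 1 and 0. It was higher by 2.29 (SE 0.42, limma adjusted p = 0.0025), with every array above background. Both calls held under every alternative in which the probe set was tested, with adjusted p up to 0.00704 for Hbb-b2 and 0.0149 for the shared set.

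A pair of alpha globin probe sets annotated to several genes were above background on all 4 arrays and were not called. At 1428361_x_at the values were 3790.5 and 2335 on cDNA arrays 1 and 0, against 2174 and 1259 on aRNA arrays 1 and 0, with a difference of 0.84 (SE 0.40, limma adjusted p = 0.121). At 1452757_s_at they were 2483 and 994 on cDNA arrays 1 and 0, against 656 and 650.2 on aRNA arrays 1 and 0, a difference of 1.25 (SE 0.49, limma adjusted p = 0.0687). This set passed with the replicate block (0.0444) and without cDNA array 0 (0.00858). Hba-a2 (1427219_at), an alpha chain left out by the filter, read 684 and 478 on cDNA arrays 1 and 0, against 57.1 and 74.7 on aRNA arrays 1 and 0, at least 4.19-fold higher on cDNA. Hba-a1 (1453574_at) ran the other way and lay under background on cDNA, at 27.7 and 24.6 on arrays 1 and 0, against 176 and 183 on aRNA arrays 1 and 0. Of the 15 hemoglobin probe sets, 4 passed the filter and 2 of these were called, both higher. The remaining sets, for the embryonic chains Hbb-y, Hbb-bh1 and Hba-x, another alpha set with several symbols and a second Hbb-b2 set, were above background on at most 2 arrays each, and 4 of them on none.

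**Figure D2:**
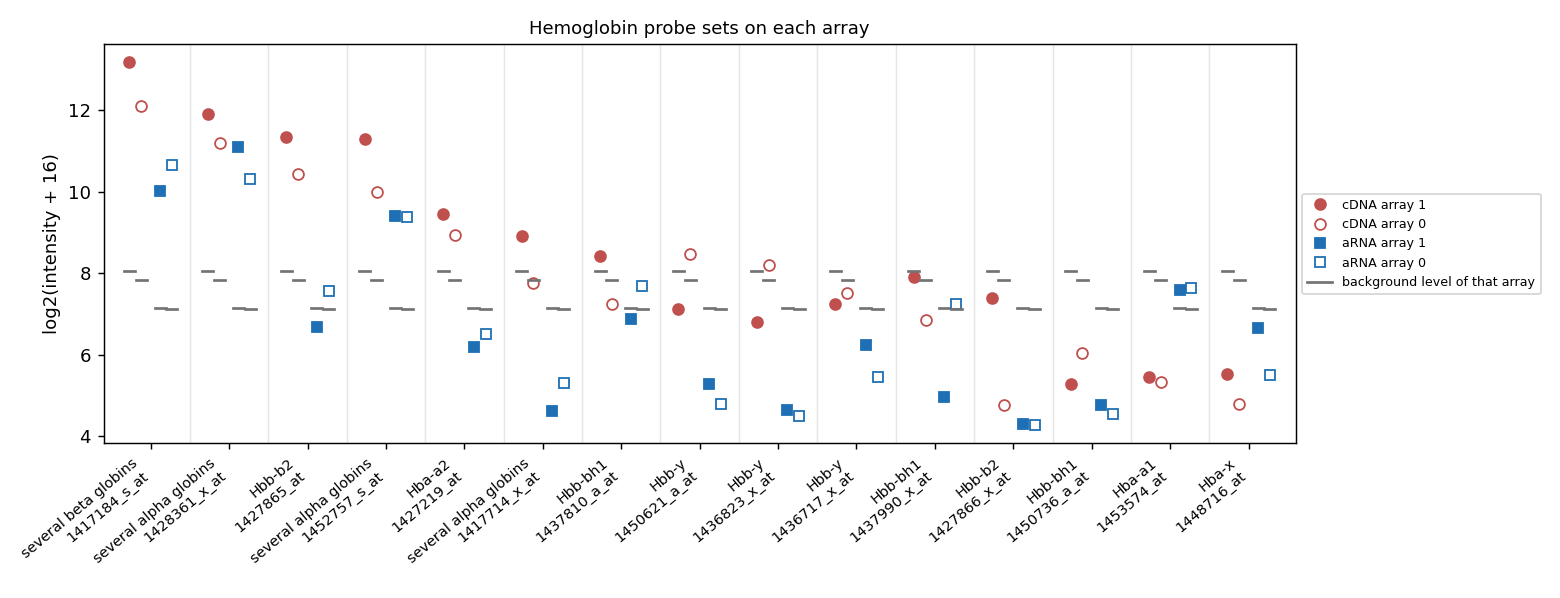
Values of the 15 hemoglobin probe sets, log2(intensity + 16) on the vertical axis, with 1 point per array and a grey bar at the background level of that array. The beta globin sets 1417184_s_at and 1427865_at stand higher on both cDNA arrays, and most sets toward the right lie near or under background.

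The 2 cDNA arrays also differed from each other. The 5 neutrophil genes chosen were brighter on cDNA array 1 than on cDNA array 0, from 1.62-fold for Ngp to 5.19-fold for S100a8, where 50.5% of all probe sets were. Of the 19 other neutrophil genes 12 were brighter and 7 dimmer there, Pglyrp1 and Mmp9 among the dimmer ones. Globin on cDNA was brighter on array 1 by 2.08-fold at the shared beta set, 1.87-fold at Hbb-b2, and 1.62-fold and 2.5-fold at the shared alpha sets. On aRNA the same 4 sets had ratios of array 1 to array 0 of 0.638, 0.503, 1.73 and 1.01. None was called between the numbers, with limma adjusted p from 0.868 to 0.999.

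Of 19 other neutrophil genes measured, 4 passed the filter, and of these 1 was higher and 1 lower on cDNA. Without the filter, which also admits probe sets near or under background, 3 were called, all higher. In that fit 9541 of all probe sets were called, 49.2% of them as higher. Pglyrp1, a peptidoglycan-binding granule protein, was higher on cDNA, at 799 and 1476 on cDNA arrays 1 and 0 against 132 and 182 on aRNA arrays 1 and 0 (difference 2.69, limma adjusted p = 0.00417, at most 0.0292 under the alternatives), and had passed the filter through its cDNA values. Csf3r, the receptor of the granulocyte growth factor G-CSF, was lower (difference -2.26, limma adjusted p = 0.0189). It read 217 and 83.9 on cDNA arrays 1 and 0, both under background, against 948 and 541 on aRNA arrays 1 and 0. Csf3r had passed the filter through its aRNA values, as both cDNA values lay under the filter level. With a pseudocount of 1 and with quantile normalization it was not tested. Its call was lost without cDNA array 0 (0.0516), aRNA array 0 (0.0532) or aRNA array 1 (0.184), and without the filter (0.0553). Mmp9, a protease that brain cells also make, was bright throughout, at 4010 and 4886 on cDNA arrays 1 and 0 against 2849 and 3019 on aRNA arrays 1 and 0 (difference 0.59), and did not pass. Fpr2, a formyl peptide receptor, did not pass either (difference 0.01). The median over the 4 genes tested was 0.30, against -0.11 over all probe sets tested.

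The 15 genes left out by the filter were dim, and none of them was above background on all 4 arrays. The primary granule genes Mpo, Elane and Prtn3 reached at most 301 on cDNA and 423 on aRNA, where Mpo and Prtn3 lay above background on both arrays. Ltf, which encodes lactoferrin of the secondary granules, read 290.3 and 129 on cDNA arrays 1 and 0, against 216 and 193 on aRNA arrays 1 and 0. Chil3, a chitinase-like protein of neutrophils and macrophages named after its values were seen, stood out, at 828 and 494 on cDNA arrays 1 and 0 against 17.1 and 8.72 on aRNA arrays 1 and 0. Cxcr2, a chemokine receptor of mature neutrophils, was under background on all 4 arrays. Stfa3 and Padi4 were under it on all 4 as well.

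Among the other red cell genes, 23 were measured and 7 passed the filter. Besides Hbb-b2, Sptb (beta spectrin of the membrane skeleton, which neurons also make) was higher on cDNA by 0.84 (limma adjusted p = 0.0442), a call lost without cDNA array 0 (0.0641), cDNA array 1 (0.162) or aRNA array 0 (0.201), with each array centred on its median (0.085), without the filter (0.0622) and without an intensity trend (0.0796). The other 5, among them Ank1 (ankyrin, 0.45) and Bpgm (bisphosphoglycerate mutase, -0.22), did not pass. The median over the 7 was 0.72. Klf1, an erythroid transcription factor, read 397 and 209 on cDNA arrays 1 and 0, against 176 and 98.0 on aRNA arrays 1 and 0, and lay above background on both arrays numbered 1. Gata1, another such factor, was under background on both cDNA arrays and just above it on both aRNA arrays. Hemgn, a nuclear protein of erythroid cells, was above background on cDNA array 1 alone, at 387, against 13.97 on cDNA array 0 and 11.3 and 13.4 on aRNA arrays 1 and 0.

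The heme pathway outside Alas2, which all cells use, was well above background. All 10 measured genes passed the filter, and 2 were higher and 1 lower on cDNA. Alas1, the first enzyme of the pathway outside red cells, was lower by 1.76 on cDNA (difference -1.76, limma adjusted p = 0.00221). Ppox, protoporphyrinogen oxidase, was higher by 2.80 (limma adjusted p = 0.00125) and Cpox, coproporphyrinogen oxidase, by 1.15 (limma adjusted p = 0.0486, lost under 6 of 11 alternatives, up to 0.28 without aRNA array 0). The other 7 did not pass.

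Among relatives of Prdx2, S100a8 and Slc4a1, more were called lower than higher on cDNA. Over all probe sets tested, 22.9% were called lower and 20.2% higher. Whether these short lists differ from those shares was not tested. Of 7 peroxiredoxin and thioredoxin genes, 3 were lower on cDNA, namely Txn2 (-2.09), the mitochondrial peroxiredoxin Prdx3 (-2.00) and Txn1 (-1.23), with limma adjusted p from 0.000263 to 0.00432. The 2 higher ones were Srxn1, sulfiredoxin, which repairs oxidised peroxiredoxins (0.72), and Txnrd1 (0.68), with limma adjusted p of 0.029 and 0.0289. Both calls were lost without aRNA array 0 (0.078 and 0.112) and under other alternatives. None was called between the numbers, where 1 had an unadjusted limma p under 0.05. Of 11 other S100 genes, 7 passed the filter and 1 was called, S100a16 (-3.22, limma adjusted p = 9e-05), lower on cDNA. S100b, the astrocyte member, and S100a10 were bright on all 4 arrays, with differences of -0.32 and -0.55 that did not pass. Of 8 other Slc4 transporters, 4 passed the filter, and Slc4a10, a bicarbonate transporter of neurons, was the 1 called, lower on cDNA (-1.25, limma adjusted p = 0.0046).

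**Figure D3:**
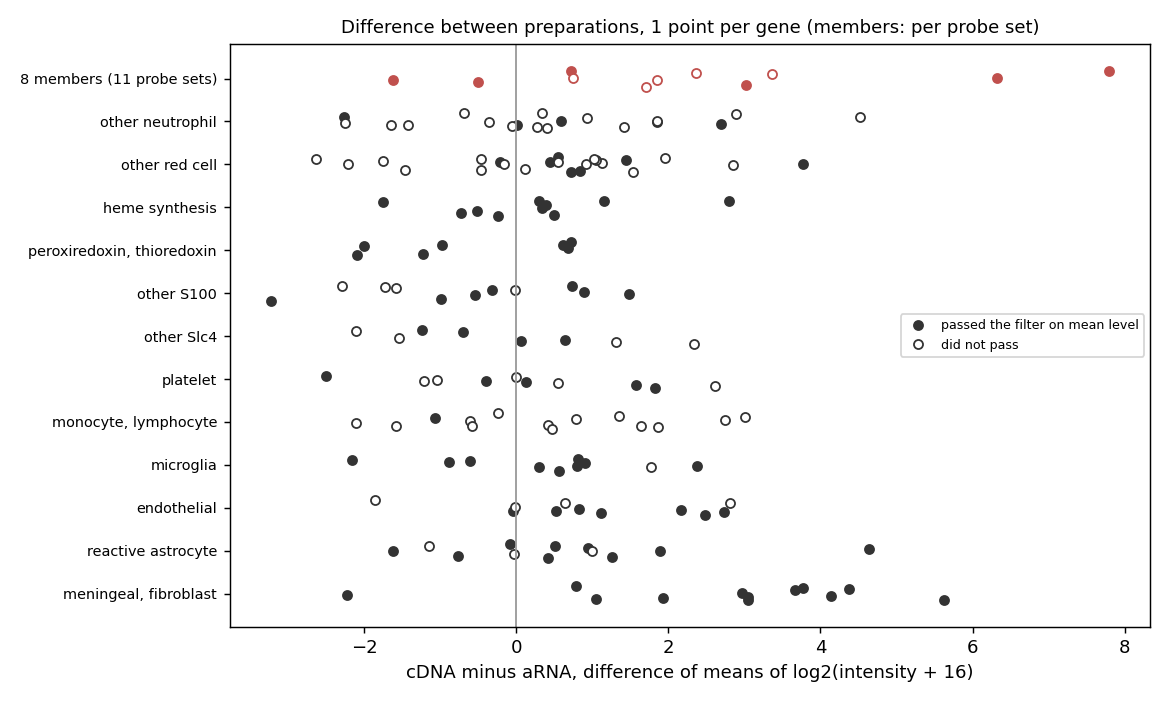
Difference of cDNA minus aRNA in means of log2(intensity + 16) for the 11 probe sets (red) and for the genes of 12 lists, 1 point per gene, filled where the mean level passed the filter. S100a8 and S100a9 lie at 6.32 and 7.79, to the right of every gene plotted from these lists. The tissue markers are not plotted, and among them Pcp2 had a difference of 6.57, above that of S100a8. The other neutrophil and red cell genes spread on both sides of 0.

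Markers of other cells that a dissected brain can bring along were set beside these values. Genes of meninges and fibroblasts were higher on cDNA at 10 of 12 and lower at 1, with a median difference of 3.05, led by Foxc2 (5.62), Col1a1 (4.37), Ogn (4.13) and Foxc1 (3.76), all with limma adjusted p of 0.0135 or less. Foxc2 was under background on both aRNA arrays and Ogn on aRNA array 1, so that their folds are bounds, at least 45.2-fold and 13.6-fold. Col1a1, Foxc1 and Foxc2 passed the filter through their cDNA values. The call of Ogn was lost without cDNA array 0 (0.0623) and without an intensity trend (0.0535). The 1 lower gene was Dcn (-2.23), which made most of the sum on aRNA at 19658 and 39731 on arrays 1 and 0. The summed intensity of the list was 48575 and 90444 on cDNA arrays 1 and 0, against 27122 and 47186 on aRNA arrays 1 and 0. Of 11 endothelial genes, 7 passed the filter and 4 were higher, namely Slc2a1 (2.74), Tek (2.49), Flt1 (2.17) and Slco1a4 (1.11), with limma adjusted p from 0.000205 to 0.0203. The call of Slco1a4 was lost without cDNA array 0 (0.0949) or aRNA array 1 (0.0731). Of the endothelial genes 3 tested ones were not called, among them Esam (-0.05). On cDNA, 11 of the 12 meningeal and 9 of the 11 endothelial genes measured were dimmer on array 1 than on array 0, and none of either list was called between the numbers by limma, where 4 meningeal and 0 endothelial genes had an unadjusted p under 0.05. Endothelial genes summed to 64966 and 81825 on cDNA arrays 1 and 0, against 18966 and 13756 on aRNA arrays 1 and 0. Slc2a1 made most of the cDNA sums, at 52093 and 60250 on cDNA arrays 1 and 0, against 11562 and 6099.5 on aRNA arrays 1 and 0. Their part in the values of the neutrophil and red cell genes was not tested.

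Other blood cells gave mixed values. Of 10 platelet genes, 5 passed the filter. F13a1 (1.82) and Gp1bb (1.57) were higher and Itga2b (-2.51) was lower on cDNA, with limma adjusted p from 0.00814 to 0.0273, and each call was lost without aRNA array 0 (0.0963, 0.0687 and 0.0509). Those of F13a1 and Gp1bb were also lost without cDNA array 0 (0.146 and 0.0597). Itga2b had passed the filter through its aRNA values, as both cDNA values lay under the filter level, at 6.962 and 8.371 on arrays 1 and 0. Ppbp, a chemokine of platelets, was under background on all 4 arrays. Of 14 monocyte and lymphocyte genes 1 passed the filter, Ighm, an immunoglobulin heavy chain gene, lower by 1.07 on cDNA (difference -1.07, limma adjusted p = 0.0444, lost without aRNA array 0 at 0.18 and without cDNA array 1 at 0.265). The list summed to 9292 and 19467 on cDNA arrays 1 and 0, against 19589 and 30198 on aRNA arrays 1 and 0, most of it from Ighm.

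Between the numbers, none of the 4 neutrophil and 7 red cell genes tested was called by limma, and none had an unadjusted p under 0.05. Over all 22519 probe sets 14 were called, or 0.0622%, of which 0.0533% were higher and 0.00888% lower on number 1. An unadjusted p under 0.05 was found for 1319. That fit has 1 residual degree of freedom. Of the 19 neutrophil genes measured, 9 were brighter on array 1 in both preparations and 3 dimmer in both, many of them from values under background. Of the 23 red cell genes, 3 were brighter and 4 dimmer in both.

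Of 10 microglial genes tested, 7 were not called and 3 were higher on number 1, namely Mpeg1 (3.27), Tyrobp (2.74) and C1qa (2.70), with limma adjusted p from 0.0175 to 0.0476. None was called without an intensity trend (0.924), and Mpeg1 was not called with a pseudocount of 64 (0.0965) or with each array centred on its median (0.0702). Of the 11 measured, 8 were brighter on array 1 in both preparations, and Cx3cr1, Tmem119 and P2ry12 ran opposite ways in the preparations. The list summed to 81666 and 49590 on cDNA arrays 1 and 0, against 93138 and 13556 on aRNA arrays 1 and 0, and 10 of its 11 genes were above background on all 4 arrays. Of 9 reactive astrocyte genes tested none was called by limma, 4 had an unadjusted p under 0.05, and the list summed to 85228 and 123088 on cDNA arrays 1 and 0, against 114878 and 57593 on aRNA arrays 1 and 0. Between the preparations, the intermediate filament gene Vim (4.63) and the copper carrier Cp (1.89) of the astrocyte list were higher on cDNA, with limma adjusted p of 0.000156 and 0.00408. Of the microglial list, C1qb was higher and the receptor Cx3cr1 lower, with limma adjusted p of 0.0314 and 0.0191, both lost without cDNA array 1 (0.11 and 0.0606). The call of C1qb was also lost without cDNA array 0 (0.0544), and that of Cx3cr1 without aRNA array 1 (0.213). Lcn2 was brighter on number 1 in both preparations, as the microglial sum was. The part of microglia or astrocytes in Lcn2 was not tested.

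**Figure D4:**
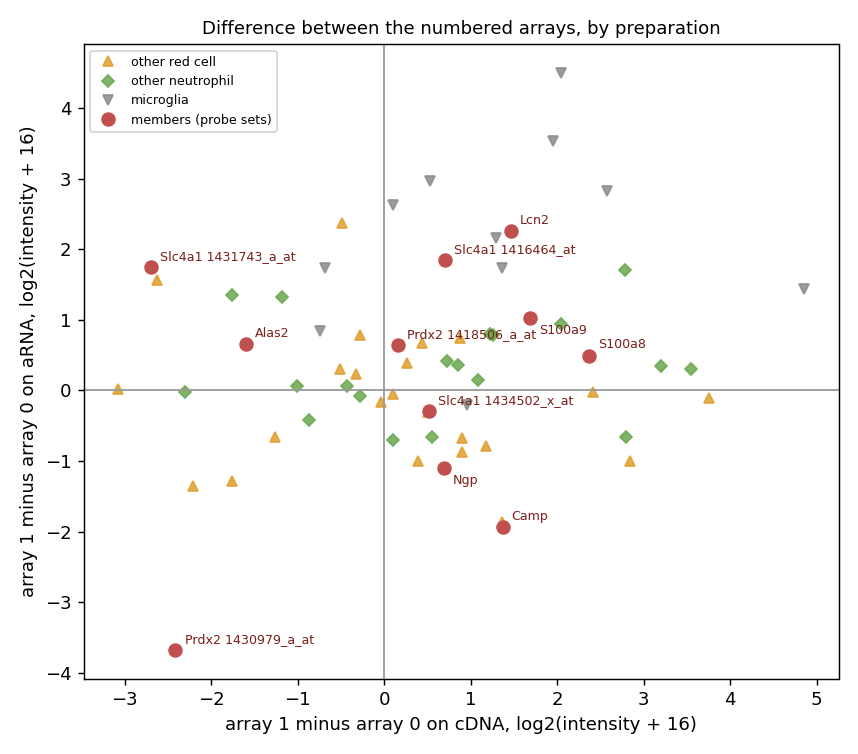
Difference of array 1 minus array 0 in log2(intensity + 16), on cDNA (horizontal axis) and on aRNA (vertical axis), for the 11 probe sets (red, named) and for genes of 3 lists. Lcn2 lies at 1.47 and 2.26, among microglial genes in the upper right, and Prdx2 at 1430979_a_at lies at -2.41 and -3.67 in the lower left.

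The likeness of patterns was described over the 4 arrays as the root mean square distance between log2 values centred on their mean, among 20002 probe sets with 1 gene symbol that passed the filter. The smallest distance to S100a9 was that of Ttr (1459737_s_at), the transthyretin of choroid plexus, at 0.14, with log2 values of 17.17 and 15.81 on cDNA arrays 1 and 0, against 9.20 and 8.01 on aRNA arrays 1 and 0. Coq8a (0.56) and Maf1 (0.58) followed, and S100a8 lay at 0.80. S100a9 was under background on both aRNA arrays, so its pattern rests on the difference between the preparations for which it was chosen, and the order of these distances cannot be read. Closest to the Prdx2 set 1430979_a_at were Itih5 (0.56), Wfdc6a (0.65) and Vit (0.78). The other Prdx2 set, which varied little, was matched within 0.02 by Bbs1, Hr and Ctsa.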

How the data were processed

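The deposited values are intensity, 1 value per probe set and array on a linear scale, which the authors had scaled to a 2% trimmed mean of about 2500.0 on each array, as the values themselves show. The sources used here name no software for summarising and scaling the probes. The 8 genes and the lists of other genes were chosen with earlier results of these data known. Of 45101 probe sets, 64 controls were set aside. By platform annotation 34945 probe sets had 1 symbol, 932 had several and 9160 had none, and 34741 symbols were updated through RefSeq.

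Values were taken as log2(intensity + 16). Probe sets with a mean at or above the median of 8.385 were tested (22519) with limma 3.58.1 in R 4.3.3, with an intensity trend, in one fit over all 4 arrays per comparison and without a replicate block, since equal numbers are not known to mark shared animals. P-values were adjusted by Benjamini-Hochberg over all tested probe sets, and 0.05 was the threshold. For a gene with several probe sets, the one with the highest mean was used. The procedure was tested on simulated data. With 2 arrays per preparation, their number limits the precision. Named in the text are every probe set of the 8 genes, all of hemoglobin, up to 4 called genes of each list with the largest differences, or the 2 brightest where none was called, and the 3 probe sets most alike in pattern. Other genes were named after their values were seen. Promoters are from RefSeq (GRCm38.p6) and matched 7 of the 8 genes. Alternatives were other pseudocounts, scalings and filters, no trend, a replicate block and leaving out each array.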

Additional observations from a re-analysis of the deposited data

Results flagged for a closer look

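At 5 of the 11 probe sets the difference of array 1 minus array 0 had opposite signs in the preparations, and whether these differences differ was not tested. On the log2 scale, cDNA minus aRNA, the gap was 1.79 for Ngp (1418722_at), with array 1 brighter on cDNA and dimmer on aRNA. For Camp (1419691_at), with the same signs, it was 3.30. It was -2.25 for Alas2 (1451675_a_at) and -4.44 for Slc4a1 at 1431743_a_at, where array 1 was dimmer on cDNA and brighter on aRNA, with every value under background. It was 0.81 for Slc4a1 at 1434502_x_at, with both aRNA values under background.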

How the results depend on the processing

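For the 11 probe sets, the sign of cDNA minus aRNA was kept in all 44 values under other scalings and pseudocounts and in 39 of 44 with 1 array left out. The 5 that changed were 2 each of Lcn2 and Slc4a1 (1431743_a_at) and 1 of Prdx2 (1430979_a_at). The sign between the numbers was kept in 43 of 44. Over all probe sets, 9722 were called between the preparations, 6454 with a filter at the 75th percentile and 7148 to 8538 with 1 array left out. Genes called over the lists, here and below without that of the tissue markers, numbered 37, against 23 with that filter. Over all probe sets tested 43.2% were called, and whether the listed genes differ from that share was not tested. Of the neutrophil list 2 were called, 1 higher and 1 lower, against 3 with no filter (3 higher and 0 lower), 1 with a pseudocount of 1, 1 with quantile normalization, 0 with the 75th percentile filter and 1 to 2 with 1 array left out. Of the red cell list 2 were called, against 1 with each array centred on its median, 1 with the 75th percentile filter and 1 to 2 with 1 array left out. The stricter filter tests fewer genes, and the cause of the other changes was not tested. Between the numbers 14 were called, against 9 with a pseudocount of 64, 8 with median centring, 55 with quantile normalization, 28 with no filter and 0 by limma without an intensity trend. Listed genes called there numbered 3, against 8 with quantile normalization and 0 without the trend. No array could be left out of that comparison, since no residual degrees of freedom would remain for a model with both terms. Median centring moved the median difference of cDNA minus aRNA over tested probe sets to -0.25, against -0.11 as deposited. With the array number as a replicate block, 10245 probe sets and 41 listed genes were called. Deviations of equally numbered arrays correlated at 0.04 across genes. This sets only 1 difference per preparation side by side, so it cannot show whether equal numbers mark shared animals. Dim probe sets, where values lie near background, limit what can be read of Alas2, Slc4a1 and most granule genes.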
